A study of Homo sapiens with 4 samples.

Results

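The protein kinase D family has 3 genes, PRKD1, PRKD2 and PRKD3, and each was measured by 1 probe set among the 17687 named genes of the Clariom S expression array. The members were chosen by name, as the genes of the family to which PRKD1, the miR-410 target proposed by the study, belongs. The question addressed was whether PRKD2 and PRKD3 moved with PRKD1 or against it. RNA came from 2 human prostate cancer (PCa) cell lines, PC3 and C42B, each stably carrying either a plasmid with the human miR-410 precursor behind a CMV promoter and a GFP reporter (miR-410) or the corresponding scrambled plasmid (miR-CON). All 4 cultures were selected and kept in puromycin and harvested in logarithmic growth, and whether each was a pool or a clone is not given in the sources used here. PC3 is an androgen-independent line from a bone metastasis, and C42B is a castration-resistant derivative of LNCaP cells. There was 1 array per line and construct, so a difference between constructs within a line has no replicate check and no p-value. Levels are RMA values on a log2 scale, on which a difference of 1 is 2-fold. Where 4 values of a gene follow each other, they are in array order, which is the pair titled PC3 and then the pair titled C42B, each with its miR-CON array first.

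The labels of these arrays go against each other and against the markers of the lines, so each array is named by its title here, and every direction within a pair rests on the titles. For the pair titled PC3, the genotype and description fields give the constructs the other way round from the titles. The mean of all 9 measured markers of the LNCaP lineage was higher in the pair titled PC3, and 7 of them passed limma's test at an adjusted p under 0.05. Of 12 markers for PC3 itself, 11 were higher by their mean in the pair titled C42B, and 10 passed. The mean log2 value of the LNCaP-lineage markers was 9.10, 9.47, 6.49 and 6.11 in array order, and for the PC3 markers it was 5.48, 5.41, 9.40 and 9.28. KLK3 (prostate-specific antigen), FOLH1 (prostate-specific membrane antigen) and ANXA1 (annexin A1) followed this division, with log2 line differences of 4.15, 7.95 and -7.95 (arrays titled PC3 minus arrays titled C42B). No probe set was named for the miR-410 gene, so the overexpression could not be checked on these arrays.

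Protein kinase D enzymes are serine/threonine kinases of the calcium/calmodulin-dependent kinase group. Receptors that signal through Gq activate phospholipase C, which makes diacylglycerol. Diacylglycerol draws protein kinase D to membranes, where calcium-independent protein kinase C isoforms phosphorylate its activation loop. Active enzyme acts on vesicle formation at the Golgi, on actin regulators and on class IIa histone deacetylases, and PRKD1 phosphorylates the E-cadherin repressor SNAIL. A microRNA lowers an mRNA mainly through pairing of its seed, bases 2 to 8, with the 3′ untranslated region. The mature forms of miR-410 are shown because their seeds define what the overexpressed precursor could pair with, and the seed is in capitals. Both lie on the plus strand of chromosome 14 in GRCh38.p14 (RefSeq), at chr14:101065961-101065981 for the 3p form, which the study overexpressed, and at chr14:101065925-101065945 for the 5p form.
hsa-miR-410-3p: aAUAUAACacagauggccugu
hsa-miR-410-5p: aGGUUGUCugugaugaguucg
Of 2545 mature human microRNAs in the RefSeq table, 1 had the seed of miR-410-3p, itself, and 3 had the seed of miR-410-5p. The untranslated regions of the PRKD genes were not analysed here.

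PRKD1 varied widely over the 4 arrays, while PRKD2 and PRKD3 hardly varied. In the pair titled PC3, PRKD1 had RMA values of 10.15 (miR-CON) and 10.23 (miR-410), and in the pair titled C42B it had 3.86 (miR-CON) and 6.80 (miR-410). The range of PRKD1 over all 4 arrays was 6.37. In the pair titled C42B, PRKD1 was higher on the array titled miR-410 by a log2 difference of 2.94 as measured (7.69-fold). The study gives the opposite direction for PRKD1 with miR-410. It reports a decrease on arrays of PC3 cells, by real-time PCR in both lines, and by Western blot. The pair titled C42B is the one that carries the PC3 markers. The array fold that the study lists for PRKD1 in PC3 has the size measured in this pair, with the opposite sign. The same holds for ZNF385B, another gene that the study lists for PC3 (log2 difference of 2.51 in this pair). Which construct each array of the pair held could not be checked here. In the pair titled PC3, the difference was 0.08, or 1.06-fold, below the median absolute difference of all genes in that pair (0.164). As a yardstick of background signal, 349 olfactory receptor genes, few of which are known to be expressed in the prostate, had a 5th to 95th percentile range of 2.25 to 4.82 where PRKD1 was lowest (titled C42B miR-CON). PRKD1 lay inside that range, with 69 of the 349 genes at or above it, so its level there could not be told from background and the measured fold is no exact size. With values under the 95th percentile of these genes raised to it on each array, the difference was 1.98, or 3.95-fold. With 1 array per construct, this is no lower bound either. On the array titled C42B miR-410, 1 of the 349 was at or above PRKD1, and on the arrays titled PC3, 0 were. PRKD2 and PRKD3 had 0 of the 349 at or above them on each of the 4 arrays. Bulk RNA does not separate fewer PRKD1-expressing cells in a culture from less PRKD1 RNA per cell. Of the other genes described below, those said to be at background lay at or under the same percentile, and differences that rest on such a value are likewise no exact sizes.

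**Figure D1:**
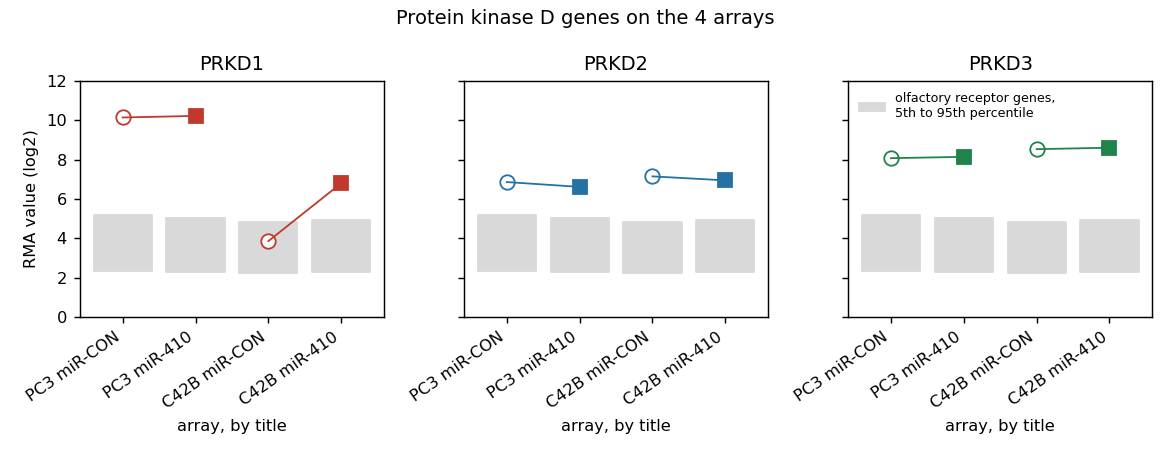
RMA values (log2) of PRKD1, PRKD2 and PRKD3 on each array, with open circles for arrays titled miR-CON, filled squares for arrays titled miR-410, and lines joining the arrays of a line. Grey bars span the 5th to 95th percentile of 349 olfactory receptor genes on each array. PRKD1 lies inside the grey bar at its lowest value (3.86, titled C42B miR-CON), and PRKD2 and PRKD3 stay between 6.61 and 8.61 on every array.

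PRKD2 neither followed PRKD1 nor showed a difference of a size that could mirror it. PRKD2, the most widely expressed family member in many tissues, had RMA values of 6.86, 6.61, 7.15 and 6.95 in array order. Its range over all 4 was 0.54. The array titled miR-410 was lower in both pairs, by log2 differences of -0.25 (0.843-fold) in the pair titled PC3 and -0.20 (0.869-fold) in the pair titled C42B. The first is above the median absolute difference of its pair (0.164), and the second is below that of its pair (0.245). In the pair titled C42B, PRKD2 was at percentile 42.8 of all genes by absolute difference and PRKD1 at percentile 99.8.

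PRKD3 was the steadiest member within pairs. PRKD3, which lacks the PDZ-binding tail of the other members, had RMA values of 8.08, 8.14, 8.53 and 8.61 in array order, with a range of 0.53. The array titled miR-410 was higher by 0.07 in both pairs, or 1.05-fold, at percentiles 22.1 (titled PC3) and 16.1 (titled C42B) of all genes by absolute difference. After subtraction of a loess trend against mean level, the difference in the pair titled C42B was -0.063, so PRKD3 had no settled direction there.

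Of the 3 members, 1 (PRKD1) was at least 2-fold different in the pair titled C42B, against 3.60% of all genes in either direction and 1.35% at least 2-fold higher. In the pair titled PC3, 0 of 3 were at least 2-fold different, against 1.10% of all genes. The gap between PRKD2 and PRKD1 in the pair titled C42B was -3.15 on the log2 scale and that between PRKD3 and PRKD1 was -2.87. The arrays titled C42B also differed in markers of the LNCaP lineage, with 4 of the 9 higher and 5 lower on the array titled miR-410 and a median log2 difference of -0.30. These ran from -2.22 (TMPRSS2) to 0.51 (ACP3). FOLH1 and ACP3 were at background on both arrays, and TMPRSS2 and TRPM8 on the array titled miR-410. With low values raised to the olfactory receptor percentile, the differences were -1.93 for TMPRSS2 and 0.12 for ACP3. The part of these markers in the PRKD1 difference was not tested.

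**Figure D2:**
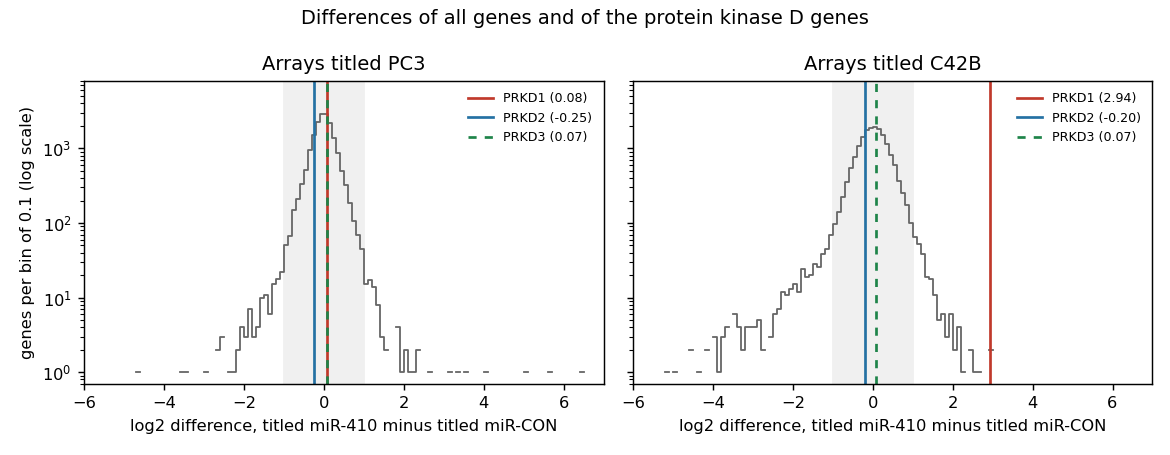
Numbers of genes (log scale) by log2 difference, array titled miR-410 minus array titled miR-CON, in bins of 0.1 over 17687 genes, with lines at the 3 protein kinase D genes and differences under 2-fold shaded. PRKD1 stands at the right edge of the distribution for the arrays titled C42B (2.94) and near its centre for those titled PC3 (0.08), while PRKD2 and PRKD3 are near the centre in both.

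To ask whether the mean difference between constructs over both pairs departed from 0, limma was fitted over all 4 arrays with the line as a block. The mean log2 differences by title were 1.51 ± 0.66 (SE) for PRKD1, -0.23 ± 0.18 for PRKD2 and 0.07 ± 0.18 for PRKD3. None of the 3 passed the threshold, with limma's adjusted p of 0.88, 0.88 and 0.96. Over all 17687 genes limma called 0, and 799 had an unadjusted p under 0.05. The fit had 1 residual degree of freedom, it does not compare the pairs, and for PRKD1 the mean joins differences of 0.08 and 2.94.

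Of the 3 members, PRKD1 alone passed the test between lines. Setting the 2 arrays titled PC3 against the 2 titled C42B, PRKD1 was higher on the former by a log2 difference of 4.86 ± 0.89 (SE), with a 95% interval from 2.63 to 7.09 and limma's adjusted p of 0.014. Its mean was 10.19 on the arrays titled PC3 and 5.33 on those titled C42B. The difference was at rank 46 from the highest among all genes. PRKD2 was lower on the arrays titled PC3 by a log2 difference of -0.31 ± 0.18, with an interval from -0.77 to 0.15 and limma's adjusted p of 0.29. PRKD3 was lower there by -0.46 ± 0.16, with an interval from -0.86 to -0.06, an unadjusted p of 0.030 by limma and an adjusted p of 0.092. Both differences were opposite in sign to that of PRKD1, but neither passed the test. Thus 1 of 3 members was called, against 25.8% of all genes, of which 14.1% of all genes were higher on the arrays titled PC3 and 11.7% higher on those titled C42B. The spread within a line holds the construct difference, and for PRKD1 the difference was 3.39 without the array titled C42B miR-CON and 6.33 without the array titled C42B miR-410, each past the threshold. With low values raised to the olfactory receptor percentile, it was 4.38.

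The start regions of the genes are shown to describe how alike the members are in base composition. RefSeq's promoter table for GRCh38.p14 held all 3 genes. The 80 bases before the outermost start are printed on the minus strand, which holds all 3 genes, with CpG dinucleotides in capitals. They lie at chr14:29927848-29927927 for PRKD1, chr19:46717115-46717194 for PRKD2 and chr2:37324834-37324913 for PRKD3.
PRKD1: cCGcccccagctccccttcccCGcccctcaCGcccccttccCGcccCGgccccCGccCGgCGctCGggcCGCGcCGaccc
PRKD2: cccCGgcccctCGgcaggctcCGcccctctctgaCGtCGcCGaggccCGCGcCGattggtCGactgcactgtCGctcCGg
PRKD3: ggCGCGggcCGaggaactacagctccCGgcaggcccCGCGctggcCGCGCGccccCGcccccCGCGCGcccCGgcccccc
In the 250 bases before the start, PRKD1 had 36 CpG dinucleotides, PRKD2 had 19 and PRKD3 had 41, with a median of 11 over 35116 such windows. Of all windows, 95.1% had fewer CpG than PRKD1, 65.4% fewer than PRKD2 and 98.3% fewer than PRKD3.

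Few genes had a pattern like that of PRKD1. Likeness was measured as the root mean square distance between log2 values over the 4 arrays, each gene centred on its own mean. Only 28 of the 17686 other genes lay within 1 of PRKD1, against 16356 for PRKD2 and 16301 for PRKD3, whose flat patterns many genes share. Nearest to PRKD1 were ZNF385B, a zinc finger gene (distance 0.52), MME, which encodes the membrane peptidase neprilysin (0.59), and NLGN1, which encodes a synaptic adhesion protein (0.69). MME had RMA values of 10.73, 10.90, 4.15 and 6.0 in array order, high, high, lowest and intermediate as for PRKD1. ZNF385B had values of 9.82, 9.25, 4.29 and 6.80, and NLGN1 had 9.37, 9.15, 4.60 and 6.20. As for PRKD1, the third value of each was at background. PRKD2 and PRKD3 were 2.82 and 2.85 away from PRKD1 and 0.17 from each other. Nearest to PRKD2 were DENND1C, a Rab GTPase exchange factor gene, C14orf93 and PWWP2B (distances of 0.011 to 0.013), and nearest to PRKD3 were CALN1, at background on all 4 arrays, ARF4, which encodes a GTPase of Golgi traffic, and COG2, which encodes a subunit of a Golgi tethering complex (0.0067 to 0.013).

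The difference of PRKD1 in the pair titled C42B was not seen in the measured genes beside it on chromosome 14. The 3 measured genes on each side were GZMB, STXBP6, NOVA1, G2E3, SCFD1 and COCH, with log2 differences from -0.69 (STXBP6, a SNARE regulator gene) to 0.59 (G2E3, a ubiquitin ligase gene), and 0 of the 6 reached 2-fold. Between lines, NOVA1, a neuronal splicing regulator gene and the nearest on one side, was higher on the arrays titled PC3 by 2.82 and STXBP6 by 1.12 (limma's adjusted p of 0.00072 and 0.033), and the other 4 did not pass the test, with differences from -0.07 to 0.74. NOVA1 had values of 11.04, 11.42, 8.28 and 8.54 in array order. Unlike PRKD1, it differed little within the pair titled C42B (0.25). Neighbours of PRKD2 on chromosome 19 and of PRKD3 on chromosome 2 had differences in the pair titled C42B from -0.52 to 0.03 and from -0.77 to 0.24, and 0 of 6 reached 2-fold at either gene. Gene order came from RefSeq's GRCh38.p14 table, and copy number was not measured here.

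**Figure D3:**
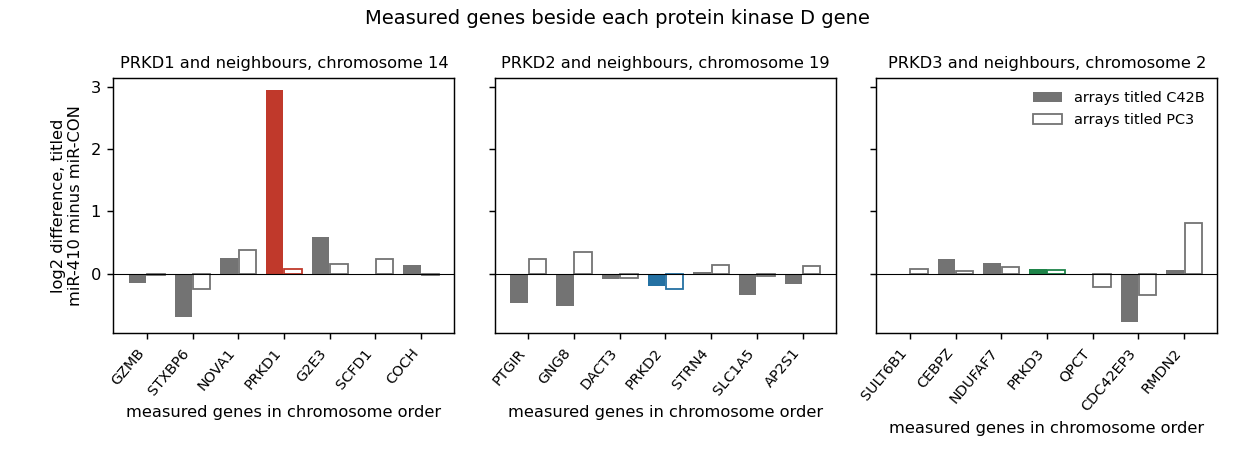
Log2 differences, array titled miR-410 minus array titled miR-CON, of each protein kinase D gene (coloured) and the 3 nearest measured genes on each side (grey), in chromosome order, with filled bars for arrays titled C42B and open bars for arrays titled PC3. PRKD1 stands alone at 2.94 among neighbours between -0.69 and 0.59.

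Upstream of the kinases, most receptor genes were lower on the arrays titled miR-410. Of 14 measured genes of receptors coupled to Gq or G12, 11 were lower and 3 higher on the array titled C42B miR-410. Over all 17687 genes, 8674 were lower and 9011 higher there. The median log2 difference of the 14 receptor genes was -0.33, against 0.008 over all genes. At least 2-fold lower were 2 of them, the muscarinic receptor gene CHRM3 (-2.21) and the bradykinin receptor gene BDKRB2 (-1.46), against 2.26% of all genes at least 2-fold lower. Both were at background on the array titled C42B miR-410, and with low values raised to the olfactory receptor percentile the differences were -1.79 and -0.51. For the pair titled PC3, 12 were lower and 2 higher, where 9035 of all genes were lower and 8650 higher. The median of the receptor genes there was -0.19 against -0.006 over all genes, and 0 reached 2-fold. Of the 14, AGTR1 and CHRM1 were at background on all 4 arrays, so their directions count for little. CHRM3, BDKRB2 and LPAR1, all lower in the pair titled PC3, were at background on both of its arrays, so the same holds for their directions there. Between lines, 4 of the 14 were called higher on the arrays titled C42B and 1 on those titled PC3, against 11.7% and 14.1% of all genes. LPAR1, a lysophosphatidic acid receptor gene, had RMA values of 4.21 and 4.02 in the pair titled PC3 (background) and of 11.07 on both arrays titled C42B. For GRPR, the bombesin receptor gene, these were 5.40, 5.35, 11.58 and 10.74 in array order. Line differences (arrays titled PC3 minus C42B) were -6.95 ± 0.17 (SE) for LPAR1 and -5.78 ± 0.29 for GRPR, opposite in sign to that of PRKD1, with limma's adjusted p of 7.7e-05 and 0.00023. The neurotensin receptor gene NTSR1 was also lower on the arrays titled PC3 (-2.03 ± 0.19), and LPAR3, another lysophosphatidic acid receptor gene, was higher there (1.28 ± 0.18).

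Among the G protein genes, GNAQ, which encodes the alpha subunit of Gq, varied most within the pair titled C42B. GNAQ had RMA values of 7.71, 7.52, 4.60 and 6.50 in array order. It was lowest, and at background, where PRKD1 was lowest, and its log2 difference in the pair titled C42B was 1.90 (1.68 with low values raised). Its line difference of 2.07 did not pass the test (limma's adjusted p of 0.055). It was the only one of 6 measured G alpha genes to reach 2-fold in that pair (3.60% of all genes did), and GNA14 was lowest there (-0.70). GNA11, its close relative, differed by 0.35 in that pair and was higher on the arrays titled PC3 by 0.93 ± 0.22 (limma's adjusted p of 0.029).

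Enzymes that make and use diacylglycerol differed under 2-fold between constructs. Of 11 measured phospholipase C genes, 8 were higher and 3 lower on the array titled C42B miR-410, from -0.83 (PLCB2) to 0.59 (PLCE1), and 0 reached 2-fold in either pair. Of the 3 lower, PLCG2 was at background on all 4 arrays. Between lines, 4 of the 11 were called, all higher on the arrays titled C42B, against 11.7% of all genes. PLCE1, the Ras-regulated isoform, had the values furthest apart, with 3.25, 2.92, 7.60 and 8.19 in array order. Its line difference was -4.81 ± 0.26 (SE; limma's adjusted p of 0.00025), opposite in sign to that of PRKD1. It was at background on both arrays titled PC3, and with low values raised the difference was -2.80. Of 10 diacylglycerol kinase genes, which code for enzymes that remove diacylglycerol, 5 were higher and 5 lower on the array titled C42B miR-410, and 2 were called between lines (25.8% of all genes), DGKG (-2.07 ± 0.35) and DGKA (-1.15 ± 0.24), both higher on the arrays titled C42B. DGKG was at background on both arrays titled PC3. DGKB, DGKI and DGKK, all among the 5 lower, were at background on all 4 arrays, so their directions count for little. Of the 10 genes, DGKG was the highest in the pair titled PC3 (0.99) and DGKH the highest in the pair titled C42B (0.65).

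Protein kinase C genes, some of whose products phosphorylate the activation loop of protein kinase D, did not reach 2-fold in either pair. Of 8 measured, 6 were higher and 2 lower on the array titled C42B miR-410, from -0.70 (PRKCH) to 0.32 (PRKCA). PRKCB and PRKCQ, both among the 6 higher, were at background on all 4 arrays, so their directions count for little. The calcium-independent isoform gene PRKCE had values of 7.69, 7.74, 7.95 and 8.02 in array order, and PRKCD had 9.12, 8.97, 8.51 and 8.69. Between lines, 2 were called (25.8% of all genes), PRKCA, a classical isoform gene (-1.57 ± 0.19), and PRKCH, a calcium-independent isoform gene (-1.28 ± 0.26), both higher on the arrays titled C42B.

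Substrates and effectors of protein kinase D lay near 0 within pairs. Of 24 measured, 14 were higher and 10 lower on the array titled C42B miR-410, with a median log2 difference of 0.09, and 0 reached 2-fold in either pair. They ran from the class IIa histone deacetylase gene HDAC9 (-0.40) to PIK3C3, a lipid kinase gene of autophagy (0.62). MAP4K1, among the 14 higher, was at background on all 4 arrays. Between lines, 6 of the 24 were called higher on the arrays titled C42B and 4 on those titled PC3, against 11.7% and 14.1% of all genes. The former included HDAC9 (-1.26 ± 0.20), HDAC4 (-0.82 ± 0.17) and HDAC7 (-0.71 ± 0.16), and the latter DNM1L, which encodes a mitochondrial fission GTPase (1.03 ± 0.19).

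Of the 5 genes that the study discusses together with PRKD1, 2 were at least 2-fold different in the pair titled C42B, both lower on the array titled miR-410, against 3.60% of all genes in either direction. CDH1, the E-cadherin gene, had values of 10.27, 10.29, 7.97 and 4.63 in array order. It was high with PRKD1 on the arrays titled PC3 and lowest, at background, on the array titled C42B miR-410, where PRKD1 was not lowest. MMP10, a matrix metalloproteinase gene, had values of 3.86, 3.85, 5.62 and 4.42, with a difference of -1.20 in the pair titled C42B. It was at background on all arrays other than the third, and with low values raised the difference was -0.69. SNAI1, which encodes SNAIL, had 7.57, 7.60, 6.76 and 6.50 and differed by -0.26 there. CTNNB1 (β-catenin) differed by 0.31 and SFN (14-3-3σ) by -0.09. Between lines, 3 of the 5 were called (25.8% of all genes). CDH1 (3.98 ± 1.01) and SNAI1 (0.95 ± 0.18) were higher on the arrays titled PC3 and SFN (-3.78 ± 0.16) higher on those titled C42B, with limma's adjusted p of 0.038, 0.014 and 0.00014. The line differences of MMP10 (-1.16) and CTNNB1 (-0.48) did not pass the test.

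Relatives of protein kinase D in the calcium/calmodulin-dependent kinase group were higher about as often as lower within pairs. Of 47 measured, 24 were higher and 23 lower on the array titled C42B miR-410, with a median log2 difference of 0.03, and 1 reached 2-fold, against 3.60% of all genes. Within the pair titled PC3, 22 were higher and 25 lower, with a median of -0.02, and 0 reached 2-fold, against 1.10% of all genes. CAMK4, CAMKV, DCLK1, DCLK3, PHKG1 and PNCK were at background on all 4 arrays, so their directions count for little. The gene that reached 2-fold in the pair titled C42B was DCLK2, a doublecortin-like kinase gene, with a difference of 2.11. It had values of 6.24, 6.61, 4.01 and 6.13 in array order, lowest, and at background, on the array titled C42B miR-CON. With low values raised, its difference was 1.31. The lowest difference in that pair was that of BRSK1 (-0.62). Between lines, 16 of the 47 were called, 8 in each direction, against 25.8% of all genes. As measured, STK33 (4.33 ± 0.18) and MARK1 (2.78 ± 0.23) differed most towards the arrays titled PC3. Both were at background on those titled C42B, and with low values raised their differences were 2.08 and 1.04. MARK1 was then below PHKG2 (1.38), among others. STK17A (-2.54 ± 0.23) and CAMK2G (-2.30 ± 0.17) differed most towards the arrays titled C42B.

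**Figure D4:**
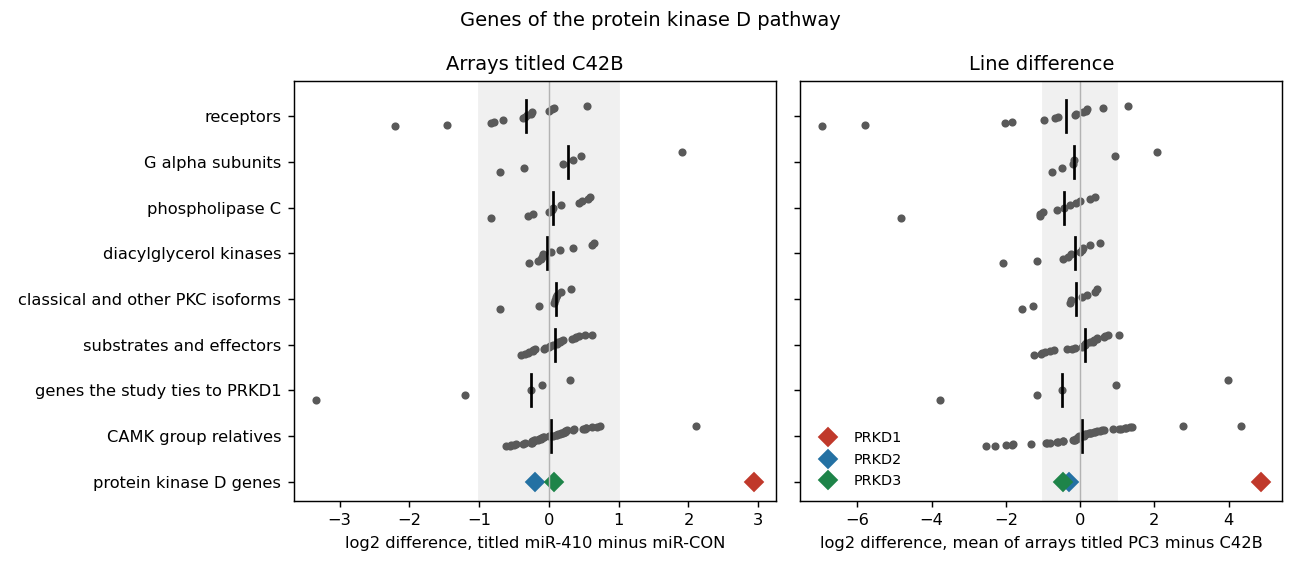
Log2 differences of genes of the protein kinase D pathway in the pair titled C42B (left, array titled miR-410 minus array titled miR-CON) and between lines (right, mean of arrays titled PC3 minus mean of arrays titled C42B), with 1 point per gene, a bar at each list's median and differences under 2-fold shaded. PRKD1 lies to the right of all list genes in both panels (2.94 and 4.86), while PRKD2 and PRKD3 lie within 0.5 of 0.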

How the data were processed

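RMA in Partek was the authors' normalization of the 4 Clariom S arrays, and the deposited values are on a log2 scale. The number of arrays limits the precision. RMA evens out the arrays' distributions, so a shift shared by most genes would not be seen. Of 21448 probe sets, 17709 had 1 gene symbol in the platform's table, 0 had several and 3739 had none here. Values of 20 genes with more than 1 probe set were averaged, none of them a member. The members and lists were chosen with earlier results of these data known.

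Within a pair, the array titled miR-CON was subtracted from the other, and genes were counted at 2-fold. Lines were compared with limma 3.58.1 in R 4.3.3 (2 arrays against 2, 2 residual degrees of freedom), and constructs over both lines with the line as a block, with Benjamini-Hochberg adjustment over all genes at 0.05. On simulated data, the fits were required to return the size of planted shifts by their median. No requirement was set there on which genes were called. Alternatives were the construct by the genotype field, median centring, a loess trend (span 0.4), other folds, a filter on dim genes, all probe sets, the construct as a covariate and each array left out. Named genes were the members, the genes the study discusses with PRKD1, up to 2 highest and 2 lowest of each list and pair, 3 similar genes and 3 neighbours per side for each member, and KLK3, FOLH1 and ANXA1. Other list genes, the line differences described, the olfactory receptor yardstick and the raising of low values to its 95th percentile were chosen after their values were seen. Python 3.11.15, NumPy 2.4.6, pandas 2.3.3, statsmodels 0.14.6 and Matplotlib 3.10.9 were used.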

Additional observations from a re-analysis of the deposited data

Results flagged for a closer look

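Among the members, the genes the study discusses with PRKD1, the similar genes and the neighbours, 5 had differences of opposite sign in the 2 pairs, each larger than the median absolute difference of its pair. With 1 array per construct and line the difference between pairs was not tested. By title, ZNF385B differed by -0.58 in the pair titled PC3 and 2.51 in the pair titled C42B, a gap of 3.09, and NLGN1 by -0.22 and 1.60, a gap of 1.82. Both genes were at background on the array titled C42B miR-CON, so these are no exact sizes. For CTNNB1 the values were -0.27 and 0.31 (gap 0.58), for GNG8 0.34 and -0.52 (gap -0.87), and for PTGIR 0.23 and -0.48 (gap -0.71). PRKD1, PRKD2 and PRKD3 each had the same sign in both pairs.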

How the results depend on the processing

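Taking the construct from the genotype field turned the pair titled PC3 to -0.079 for PRKD1, 0.25 for PRKD2 and -0.066 for PRKD3, and the PRKD2 difference over both pairs to 0.022. With a loess trend subtracted, PRKD3 in the pair titled C42B was -0.063. With low values raised to the 95th percentile of the olfactory receptor genes, an alternative chosen after seeing the data, PRKD1 in the pair titled C42B was 1.98. All other alternatives kept the members' directions and sides of the threshold. Without each array in turn, the PRKD1 line difference ran from 3.39 to 6.33 with limma's adjusted p from 0.00032 to 0.035, and genes called between lines from 2260 to 5040 (2260 without PC3 miR-410, 2426 without PC3 miR-CON), where 4566 were called with all arrays. Genes past the fold in the pair titled PC3 were 194 at 2-fold, 1158 at 1.5-fold, 55 at 3-fold and 73 without dim genes, and in the pair titled C42B 637, 2485, 209 and 393. PRKD1 alone of the members passed 1.5-fold, 2-fold and 3-fold in the pair titled C42B. No array was left out of the construct fit, since 3 arrays leave it no residual degree of freedom. Signal over background of single probes was not measured here.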
